A study of Mus musculus with 18 samples.

Results

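The transcription factors that set up and keep the cell lineages of the mammary epithelium were followed through mammary carcinogenesis in the mouse. The set was a fixed list of 10 genes, Gata3, Foxa1, Elf5, Ehf, Elf3, Trp63, Sox10, Sox9, Tbx3 and Runx1, and a gene was read from an array feature (a transcript cluster) that carries its symbol and no other. Of these 10 genes, 8 could be read, out of 27030 genes measured in the same way. Each of the 8 had a single transcript cluster. The only cluster that names Gata3 also names a second gene, and no named cluster carried Runx1, so both were not analysed here.

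The arrays covered 18 mammary tissues of female C57Bl/6 mice, in 3 groups of 6. Tumors (M/D-driven tumors, taken at 0.7 to 1 cm2) and hyperplastic glands came from mice that carried a pellet releasing 50 mg of the progestin medroxyprogesterone acetate (MPA) over 90 days and were gavaged 6 times with 200 µL of the carcinogen 7,12-dimethylbenz[a]anthracene (DMBA) at 5 mg/mL, beginning when they were 6 to 9 weeks old. M/D-naïve mice, which received neither agent, gave the normal glands; the study states one age range for all its mice and none for these alone. The mouse behind each array is not named in the labels, so p-values measure the spread between these tissues.

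The mammary duct has an inner luminal layer, made of hormone-sensing cells and of alveolar cells with their progenitors, and an outer basal or myoepithelial layer. Foxa1 opens chromatin for the estrogen receptor in hormone-sensing luminal cells, and Tbx3 is a T-box factor of the embryonic mammary placode and of the same luminal cells. Elf5 directs alveolar development, with Ehf and Elf3 as epithelial relatives of the ETS family. Trp63 encodes p63, the factor that basal cells of stratified and glandular epithelia depend on, while Sox10 and Sox9 are SOX factors of basal, progenitor and stem-like mammary cells.

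Values are log2 units of the deposited table, in which 1 unit is a 2-fold difference. Array medians lay between 5.31 and 5.51, and 17049 genes had a mean above a detection level of 5.36, the level under which 95% of olfactory receptor genes lie. All 8 factors were above it on all 18 arrays. In limma's moderated test with Benjamini-Hochberg adjustment over all genes, 19.5% of genes were higher and 12.7% lower in tumors than in normal glands, 11.9% higher and 8.57% lower in tumors than in hyperplastic glands, and 1.01% higher and 0.655% lower in hyperplastic than in normal glands. The first pair of shares stands for 5278 and 3435 genes, and turned to 2129 and 12525 when arrays were centred on reference (housekeeping) genes. For tumors against hyperplastic glands the counts of 3229 and 2317 turned to 1833 and 2796 under that centring. Of the 16 measured reference genes themselves, 8 were higher and 2 lower in tumors than in normal glands, from Snrpd3 (a splicing protein, a log2 rise of 0.78) to Sdha (a mitochondrial enzyme, a log2 change of -0.38). Levels of cell type marker genes differed between the groups. The mean of 13 fat cell genes was 7.16 to 8.59 in tumors and 10.22 to 10.52 in normal glands, and the mean of 10 T cell genes 6.07 to 6.74 in tumors and 7.29 to 8.21 in normal glands. In such bulk tissue, fewer cells of a type and less RNA per cell cannot be told apart.

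Against this background, 3 of the 8 factors were higher in tumors than in normal glands, beside 19.5% of all genes, and none was lower, beside 12.7%. Trp63 rose 2.19-fold, Sox10 1.87-fold and Sox9 1.81-fold. The pan-epithelial genes rose with them, 9 of 18 with a median log2 change of 0.84. Relative to those genes none of the 3 calls held, at 0.31, 0.08 and 0.03 on the log2 scale. On that scale 148 of all 27030 genes were higher and 17101 lower, so the loss of the calls does not set these factors apart. In an exact permutation test with adjustment over all genes Sox9 alone passed (permutation adjusted p = 0.0133). The luminal factors Foxa1, Elf5, Ehf, Elf3 and Tbx3 did not pass the test in this comparison, and for each of these 5 at least 1 tumor lay above every normal gland and at least 1 below.

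**Figure D1:**
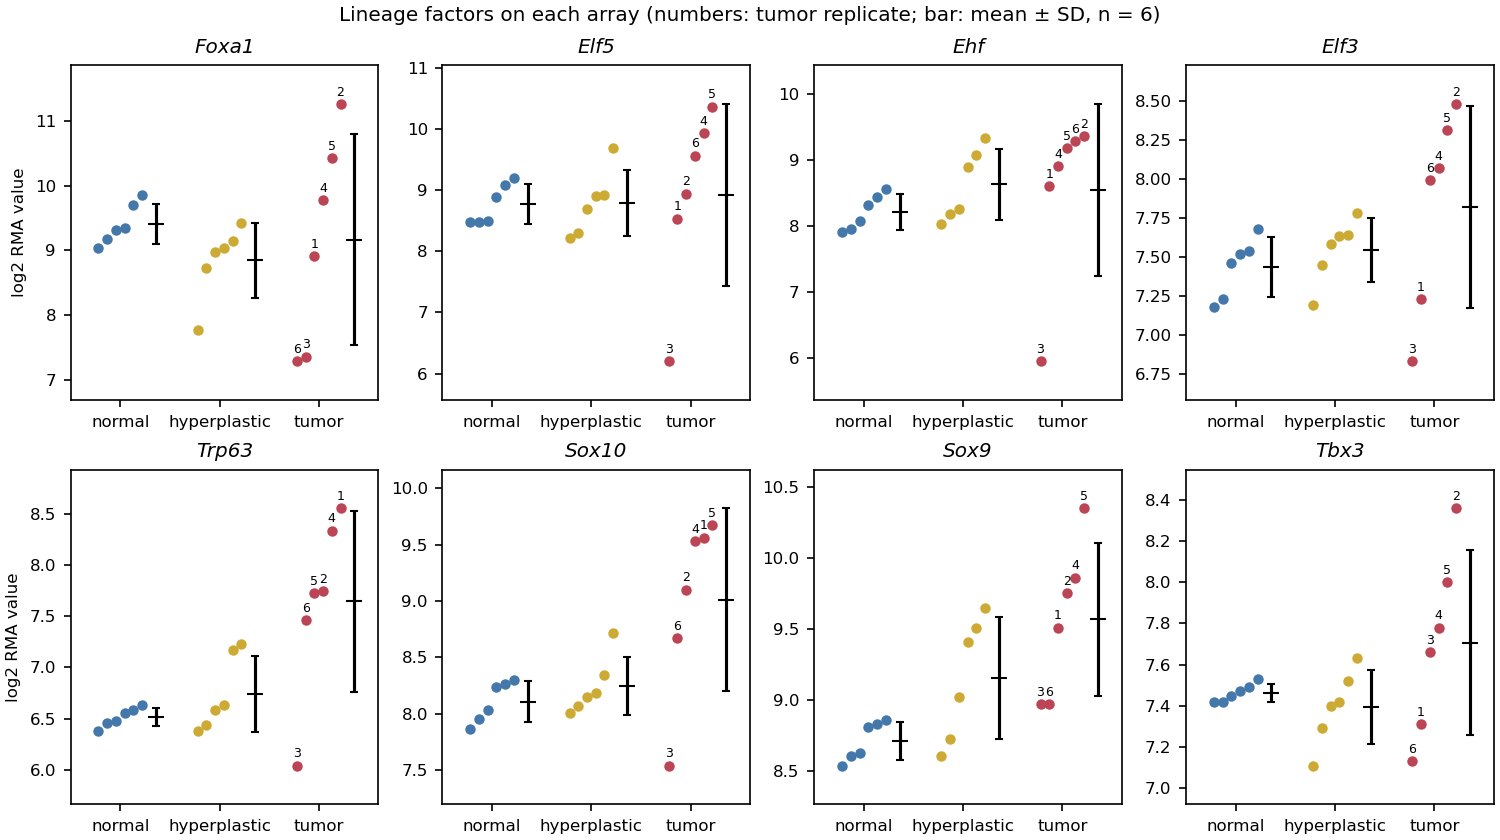
Log2 RMA value (y axis, own range for each gene) of the 8 factors on every array, by group, with the mean and SD of 6 arrays as bars and the replicate number beside each tumor. The tumor points spread wider than the normal points for every gene, from 3.35 to 10.1 times by SD, with tumor 3 lowest for Elf5, Ehf, Elf3, Trp63 and Sox10.

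The promoters of Foxa1 and Elf5 are shown because these genes had the widest spread among tumors. They are windows of 300 bases, from 250 bases before to 50 after a transcription start, taken from RefSeq on the mouse build GRCm38.p6. The table of windows used here matched 3 of the 8 factors, with 1 window for Foxa1, 2 for Elf5 and 1 for Elf3. The Foxa1 window lies inside the annotated gene, which spans 57540628 to 57548029, so its start is an internal one. Capitals mark matches, on either strand, to the binding motifs searched: AGATAA for GATA factors, TGTTTAC for forkhead factors, AGGAAG for ETS factors, ACAAAG or ACAATG for SOX factors, TGTGGT for RUNX factors and GGTGTGA for T-box factors. The capitals of the Elf5 windows are read on the opposite strand.
Foxa1, chr12:57546062-57546361, minus strand: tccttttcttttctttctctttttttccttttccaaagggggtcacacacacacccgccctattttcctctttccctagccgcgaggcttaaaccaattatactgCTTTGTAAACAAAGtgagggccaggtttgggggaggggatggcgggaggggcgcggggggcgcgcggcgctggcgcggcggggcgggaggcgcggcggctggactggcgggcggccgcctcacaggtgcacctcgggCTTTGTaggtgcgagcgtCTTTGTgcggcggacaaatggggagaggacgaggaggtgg
Elf5, first start, chr2:103411848-103412147, plus strand: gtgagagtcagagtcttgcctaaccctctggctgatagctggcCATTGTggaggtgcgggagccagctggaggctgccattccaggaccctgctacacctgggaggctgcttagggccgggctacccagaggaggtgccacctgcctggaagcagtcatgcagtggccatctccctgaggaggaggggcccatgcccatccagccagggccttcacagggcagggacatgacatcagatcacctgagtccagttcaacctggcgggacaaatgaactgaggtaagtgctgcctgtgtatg
Elf5, second start, chr2:103423818-103424117, plus strand: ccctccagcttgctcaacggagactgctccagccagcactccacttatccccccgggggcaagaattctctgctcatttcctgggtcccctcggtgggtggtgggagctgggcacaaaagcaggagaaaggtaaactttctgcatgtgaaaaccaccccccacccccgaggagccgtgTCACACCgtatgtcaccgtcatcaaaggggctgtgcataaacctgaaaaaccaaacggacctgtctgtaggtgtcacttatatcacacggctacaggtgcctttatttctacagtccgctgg

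The Foxa1 window held the SOX motif ACAAAG at 4 places, which begin at -145, -137, -8 and 11 counted from the start site. The first pair of them overlaps a match to the forkhead motif at -141. The first Elf5 window held the SOX motif ACAATG at -207, and the second held the T-box motif at -72. Of 32851 windows of this length in the same table, 28.6% held a SOX motif, 3.65% the forkhead motif and 3.98% the T-box motif. No window of Foxa1, Elf5 or Elf3 held the GATA, ETS or RUNX letters, which 11.2%, 35.4% and 16.8% of all windows held, and the Elf3 window held none of the motifs. A match describes these letters only, and binding was not measured.

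Sox9, a SOX factor of ductal progenitors that is also expressed in other tissues, was the one factor of the 8 whose tumors and normal glands did not overlap. How many of all genes separate in this way was not counted. The 6 normal glands ran from 8.54 to 8.86, with a median of 8.72. Tumors 1 to 6 had values of 9.51, 9.75, 8.97, 9.86, 10.35 and 8.97, so that even tumors 3 and 6, the lowest, lay above every normal gland. Hyperplastic glands ran from 8.61 to 9.65 with a median of 9.21, and 4 of them lay above the highest normal gland. Means were 8.71 ± 0.14 in normal glands, 9.15 ± 0.43 in hyperplastic glands and 9.57 ± 0.54 in tumors (SD, n = 6 each). The tumor rise was a log2 difference of 0.86 (SE 0.22, limma adjusted p = 0.00548), in 6 of 6 tumors. Neither step on the way passed: hyperplastic glands exceeded normal glands by 0.44 (95% interval -0.02 to 0.90, limma adjusted p = 0.396) and tumors exceeded hyperplastic glands by 0.41 (-0.05 to 0.87, limma adjusted p = 0.216).

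Sox10, a SOX factor that marks mammary basal and progenitor cells and also neural crest derivatives such as Schwann cells, ran from 7.86 to 8.30 in normal glands (median 8.13). Tumors 1 to 6 had values of 9.56, 9.10, 7.54, 9.53, 9.67 and 8.67. Thus 5 tumors lay above every normal gland and tumor 3 below every one. The mean rose from 8.11 ± 0.19 in normal glands to 9.01 ± 0.81 in tumors (SD, n = 6), a log2 difference of 0.90 (SE 0.27, limma adjusted p = 0.0148). Hyperplastic glands, at 8.01 to 8.72 (median 8.17), overlapped the normal glands (0.14 higher, 95% interval -0.43 to 0.71). Against them the tumors were higher by 0.76 (0.20 to 1.33), which missed the threshold (limma adjusted p = 0.0537) and passed without tumor 3 (1.06, limma adjusted p = 0.000241). The call against normal glands was lost in an exact permutation test per gene (permutation adjusted p = 0.0904). The mean of 12 Schwann cell genes was 6.63 to 6.96 in tumors and 7.09 to 7.17 in normal glands, lower in every tumor than in any normal gland. Among them 1 was higher in tumors (Ngfr, a neurotrophin receptor that myoepithelial cells also carry, by 0.31) and 3 were lower, led by the sodium channel gene Scn7a, which fell by 2.96. The other 8 were not called, and the median change of the list was -0.06. Of 7 melanocyte genes, 5 were below the detection level, none was higher and Mitf fell by 1.20. Mitf had a mean of 8.33 in normal glands and was already lower in hyperplastic glands, by -0.67 (limma adjusted p = 0.0229). Which cells its signal came from was not tested.

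Trp63, the basal factor p63, was nearly uniform in normal glands, from 6.38 to 6.63 (median 6.52). The values of tumors 1 to 6 were 8.56, 7.75, 6.04, 8.34, 7.73 and 7.46. All but tumor 3 exceeded every normal gland and tumor 3 lay below all. Hyperplastic glands ran from 6.38 to 7.23 (median 6.60), with replicates 3 and 5, at 7.17 and 7.23, above every normal gland and a mean 0.22 higher (95% interval -0.41 to 0.85). The tumor mean of 7.65 ± 0.89 exceeded the normal mean of 6.51 ± 0.09 (SD, n = 6) by 1.13 (SE 0.30, limma adjusted p = 0.00691). Trp63 was also the 1 factor of 8 that was higher in tumors than in hyperplastic glands, by 0.91 (SE 0.30, limma adjusted p = 0.0389), in 5 of 6 tumors. A count of 1 in 8 is near the 11.9% of all genes that were higher there, and no factor was among the 8.57% that were lower. That second call was marginal: it was lost in a fit of those groups alone (limma adjusted p = 0.110), with reference genes as the scale (limma adjusted p = 0.0632) and with replicate numbers as a block (limma adjusted p = 0.0634). Against normal glands the exact permutation test gave an adjusted p of 0.0536.

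Genes that p63 is known to act on were counted beside it. Of 15 measured p63 target genes, 7 were higher and 1 lower in tumors than in normal glands, with a median log2 change of 0.52, against 0.0439 for all genes, of which 19.5% were higher and 12.7% lower. The 18 pan-epithelial genes rose more often, 9 of them, with a median of 0.84, and their mean was lowest in tumor 3 as well, and whether the p63 target or basal genes moved apart from them was not tested. Perp, a desmosome protein of stratified epithelia, rose by 1.91 (SE 0.49, limma adjusted p = 0.00573) and Pkp1, a desmosome plaque protein, by 1.35 (SE 0.37, limma adjusted p = 0.00798). Dst, which ties hemidesmosomes to keratin, fell by 0.93 (SE 0.20, limma adjusted p = 0.00135). The mean of the target list was 7.72 in tumor 3 and 8.83 to 9.37 in the other tumors, against 8.19 to 8.33 in normal glands. Of 17 basal and myoepithelial genes, 6 were higher and none lower (median 0.43), led by Nrg1, an ERBB ligand of basal cells, at 2.87 (SE 0.38, limma adjusted p = 1.45e-05) and Igfbp2, an IGF binding protein, at 2.27 (SE 0.48, limma adjusted p = 0.00135). Krt5, a basal keratin, stood at 8.84 in tumor 3 and 10.93 to 12.44 in the other tumors, with normal glands at 9.99 to 10.39. Krt14, also a basal keratin, was 8.39 in tumor 2 and 8.02 in tumor 3, both below the normal glands at 8.87 to 9.24. In the other tumors Krt14 was 9.78 to 10.94.

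Foxa1, the pioneer factor of hormone-sensing cells, differed more among tumors than nearly any other gene. Normal glands lay between 9.03 and 9.85 (median 9.34). Tumors 1 to 6 had values of 8.91, 11.26, 7.36, 9.77, 10.42 and 7.29, so that tumors 2 and 5 were above every normal gland and tumors 1, 3 and 6 below. The tumor SD of 1.62 lay at the 99.6th percentile of the 17049 detected genes, but the gene was among the more variable in the other groups too, at the 97.1th percentile in normal and the 97.8th in hyperplastic glands. The tumor SD was 5.2 times the normal SD, where the median gene had a ratio of 1.5. The means of 9.17 in tumors and 9.41 in normal glands differed by -0.24 (95% interval -1.38 to 0.90, limma adjusted p = 0.783). Hyperplastic glands ran from 7.77 to 9.43 (median 9.00). Of them, 4 lay below the lowest normal gland, replicate 1 by less than the second decimal shows, and replicate 3 was farthest, 1.64 below the normal mean. Their mean was 0.56 lower than in normal glands (-1.70 to 0.58, limma adjusted p = 0.775) and 0.32 lower than in tumors (limma adjusted p = 0.732).

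Tbx3, the T-box factor, was the most uniform of the factors in normal glands, from 7.42 to 7.53 (median 7.46). In tumors 1 to 6 it was 7.31, 8.36, 7.66, 7.78, 8.0 and 7.13, of which 4 were above every normal gland and tumors 1 and 6 below. Hyperplastic glands, at 7.11 to 7.63 (median 7.41), fell on both sides of the normal ones, with 1 above and 4 below all of them and a mean difference of -0.07 (95% interval -0.39 to 0.25). The tumor mean of 7.71 ± 0.45 and the normal mean of 7.47 ± 0.04 (SD, n = 6) differed by 0.24 (95% interval -0.08 to 0.56, limma adjusted p = 0.256), and tumors differed from hyperplastic glands by 0.31 (-0.01 to 0.63, limma adjusted p = 0.171). The tumor SD was 10.1 times the normal one, where the median gene had a ratio of 1.5. Among detected genes the normal SD lay at the 2.6th percentile and the tumor SD at the 87.5th.

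Foxa1 and Tbx3 varied together across the arrays. With each array expressed as a deviation from its group mean, Pearson's r was 0.80 and Spearman's rho 0.77 over 18 arrays, and r was 0.55 without tumors 2 and 6, which lie farthest out in Foxa1. Both genes were highest in tumor 2, then in tumor 5, then in tumor 4, and lowest among tumors in tumor 6, while tumor 3 had low Foxa1 and a Tbx3 value above all normal glands. The arrays share 1 normalization and differ in the level of pan-epithelial genes, so r describes these tissues only. Receptor genes of the same cells were set beside them. Pgr, the progesterone receptor, had values of 8.55, 10.16, 6.21, 8.89, 8.44 and 6.26 in tumors 1 to 6, lowest in the same pair of tumors as Foxa1, against 7.35 to 8.19 in normal glands. Esr1, the estrogen receptor, was 7.44 to 7.91 in normal glands and 6.26 to 7.91 in tumors, a fall of 0.73 (SE 0.21, limma adjusted p = 0.0128). Over all tumors Pgr differed from normal glands by 0.45 (SE 0.53, limma adjusted p = 0.573). Over the 15 measured hormone-sensing genes, none was higher in tumors and 2 were lower, beside 19.5% and 12.7% of all genes. These were Esr1 and Fxyd2, a sodium pump regulator, which fell by 1.32 (SE 0.16, limma adjusted p = 5.65e-06). The mean of that list was 7.15, 8.11, 6.69, 7.60, 7.83 and 7.11 in tumors 1 to 6 and 7.41 to 7.61 in normal glands.

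**Figure D2:**
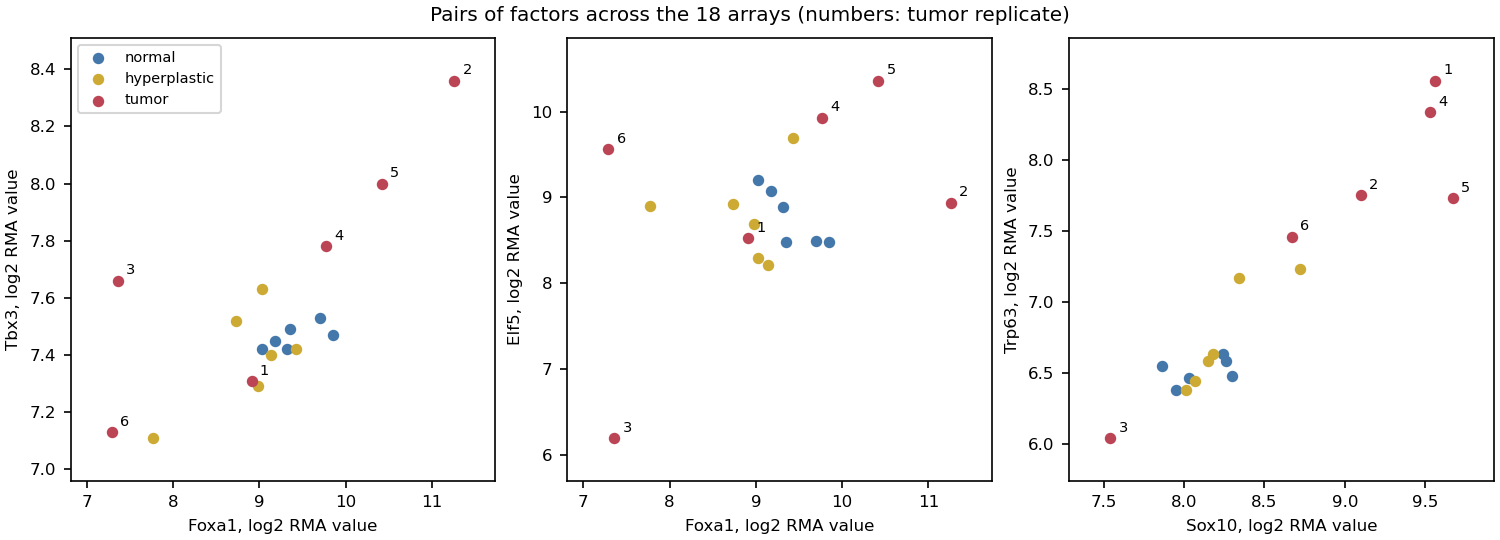
Log2 RMA values of pairs of factors on the 18 arrays, coloured by group, with tumor replicates numbered: Tbx3 against Foxa1, Elf5 against Foxa1 and Trp63 against Sox10. Tumor 6 combines the lowest Foxa1 value, 7.29, with an Elf5 value of 9.56, and tumor 3 is low in both.

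Elf5, the alveolar factor, ran from 8.48 to 9.20 in normal glands (median 8.69) and from 8.21 to 9.69 in hyperplastic glands (median 8.80). Tumors 1 to 6 had values of 8.53, 8.94, 6.20, 9.93, 10.36 and 9.56. Tumors 4, 5 and 6 exceeded every normal gland, tumors 1 and 2 lay within their range, and tumor 3 was the lowest, with a difference of -2.57 from the normal mean. Tumor and normal means, 8.92 ± 1.49 and 8.77 ± 0.33 (SD, n = 6), differed by 0.15 (95% interval -0.90 to 1.20, limma adjusted p = 0.855). Tumors and hyperplastic glands differed by 0.13 (-0.92 to 1.19), and hyperplastic and normal glands by 0.02 (-1.04 to 1.07). The SD lay at the 99.5th percentile of detected genes in tumors, the 97.5th in normal and the 97.4th in hyperplastic glands.

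Ehf, an ETS factor of epithelia, ran from 7.90 to 8.56 in normal glands (median 8.20). In tumors 1 to 6 it was 8.60, 9.36, 5.95, 8.90, 9.18 and 9.28, with 5 above every normal gland and tumor 3 far below. The means differed by 0.34 (95% interval -0.60 to 1.27, limma adjusted p = 0.615), and tumor 3 decided this: without it Ehf was 0.86 higher (limma adjusted p = 0.00622). Its SD lay at the 99.1th percentile in tumors, the 95.3th in normal and the 97.4th in hyperplastic glands. Hyperplastic glands ran from 8.03 to 9.33 (median 8.58), with replicates 3, 4 and 5 above every normal gland and a mean 0.42 higher (-0.51 to 1.36, limma adjusted p = 0.805). The tumor mean differed from theirs by -0.09 (-1.02 to 0.85).

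Elf3, an ETS factor of differentiating epithelial cells, ran from 7.18 to 7.68 in normal glands (median 7.49) and from 7.19 to 7.78 in hyperplastic glands (median 7.61). The values of tumors 1 to 6 were 7.23, 8.48, 6.83, 8.07, 8.31 and 7.99. Here 4 tumors lay above every normal gland, tumor 1 within their range and tumor 3 below it. The difference of 0.38 (95% interval -0.08 to 0.84, limma adjusted p = 0.209) passed when tumor 3 was left out, at 0.58 (limma adjusted p = 0.0149). Tumors differed from hyperplastic glands by 0.27 (-0.19 to 0.74), and these from normal glands by 0.11 (-0.35 to 0.57). Elf5 and Ehf deviated together, with r = 0.88 and rho = 0.75 over 18 arrays, 0.64 without the 2 arrays farthest out in Elf5 and 0.56 without tumor 3.

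Genes of alveolar cells and luminal progenitors were counted beside these factors. Of 19 measured, 2 were higher and 1 lower in tumors than in normal glands, beside 19.5% and 12.7% of all genes, with a median change of 0.16. Wfdc18, a secreted whey-type protein, rose by 1.31 (SE 0.48, limma adjusted p = 0.0451) and Lcn2, the iron-siderophore carrier lipocalin 2, by 0.98 (SE 0.36, limma adjusted p = 0.0475), while Glycam1, a mucin of milk and also of lymph node venules, fell by 3.32 (SE 0.84, limma adjusted p = 0.00489). The mean of the list was 9.63 in tumor 6 and 9.10 in tumor 5, the highest among tumors, and 6.37 in tumor 3, with hyperplastic glands at 7.75 to 9.32 and normal glands at 7.52 to 8.54.

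Read across the factors, the tumors differed in which lay outside the range of the normal glands. The share of all genes outside that range on each array was not counted. For Tbx3 the range was as narrow as 7.42 to 7.53. Tumor 5 had all 8 factors above every normal gland, and tumors 2 and 4 had 7 above and none below. Tumor 1 combined the highest Trp63 of all arrays, 2.05 over the normal mean, with Foxa1 and Tbx3 below every normal gland and Elf5 and Elf3 within their range. Tumor 6 had 6 factors above and 2, Foxa1 and Tbx3, below. Tumor 3 had 6 factors below every normal gland and 2, Sox9 and Tbx3, above. Among hyperplastic glands, replicate 5 had 5 above and replicate 3 had 4 above, and replicate 6 had 3 below.

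**Figure D3:**
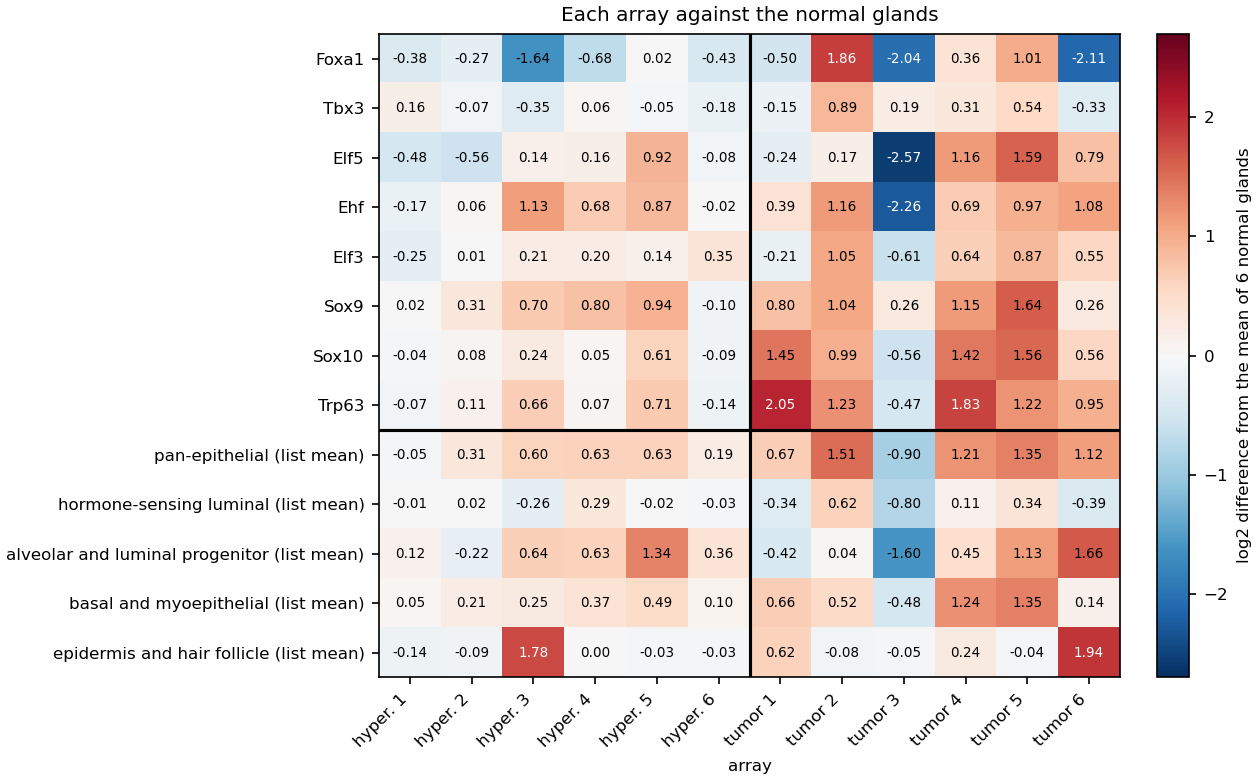
Log2 difference of each hyperplastic gland and tumor (columns) from the mean of the 6 normal glands, for the 8 factors (upper rows) and for the mean of each of 5 cell type lists (lower rows); red is higher, blue lower, and each cell prints its value. Tumor 3 is blue for Foxa1 (-2.04), Elf5 (-2.57), Ehf (-2.26) and for the pan-epithelial mean (-0.90).

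Epithelial genes differed between the tumors as well. The mean of 18 pan-epithelial genes, such as cadherins, claudins and keratins, was 9.02, 9.86, 7.45, 9.55, 9.70 and 9.46 in tumors 1 to 6, 8.29 to 8.98 in hyperplastic glands and 8.23 to 8.43 in normal glands. Tumor 3 was thus the one tumor below the normal range, and its Cdh1 value (E-cadherin) was 7.59 against 8.85 to 9.20 in normal glands. In the same tumor the mean of 11 myeloid and pan-leukocyte genes was 9.88, the highest of all 18 arrays, against 8.37 to 9.41 in the other tumors and 9.02 to 9.30 in normal glands. The part of either in the low factor values of tumor 3 was not tested. Of the 18 genes, 9 were higher and none lower in tumors than in normal glands (median 0.84), among them Dsp, the desmosome protein desmoplakin, at 1.64 (SE 0.53, limma adjusted p = 0.0234) and Cldn4, a tight junction protein, at 1.25 (SE 0.37, limma adjusted p = 0.0146). The mean of 18 epidermis and hair follicle genes was 7.74 in tumor 6 and 7.58 in hyperplastic replicate 3. Both carried the lowest Foxa1 value of their group, while the list stood at 5.76 in tumor 3, which also had low Foxa1. In normal glands it ran from 5.57 to 6.49, and replicate 5, with the highest value, also had the highest Foxa1 of its group, 9.85. In tumors 2 and 5, with the highest Foxa1, the list stood at 5.73 and 5.76. In that list Krt15, a keratin of basal and hair follicle cells, rose by 1.24 (SE 0.30, limma adjusted p = 0.00357) and Lgr5, a hair follicle stem cell gene, fell by 0.66 (limma adjusted p = 0.0189), with the others past no threshold. Whether skin in these tissues has a part in the Foxa1 values was not tested.

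The factors were therefore also read relative to the pan-epithelial genes, by centring each array on their mean. Under this scale the tumors exceeded the normal glands in none of the 8 factors: Trp63 changed by 0.31 (limma adjusted p = 0.391), Sox10 by 0.08 (limma adjusted p = 0.827) and Sox9 by 0.03 (limma adjusted p = 0.934). Foxa1 was then lower, by -1.06 (limma adjusted p = 0.0136), as were 17101 of all 27030 genes, while 148 were higher. The Trp63 difference from hyperplastic glands became 0.47 (limma adjusted p = 0.450). This centring took the median over all genes from a change of 0.0439 to one of -0.782. Because centring moves every gene alike, a change relative to that median is the same on either scale by construction. For Trp63, Sox10, Sox9 and Foxa1 it was 1.09, 0.86, 0.81 and -0.28.

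**Figure D4:**
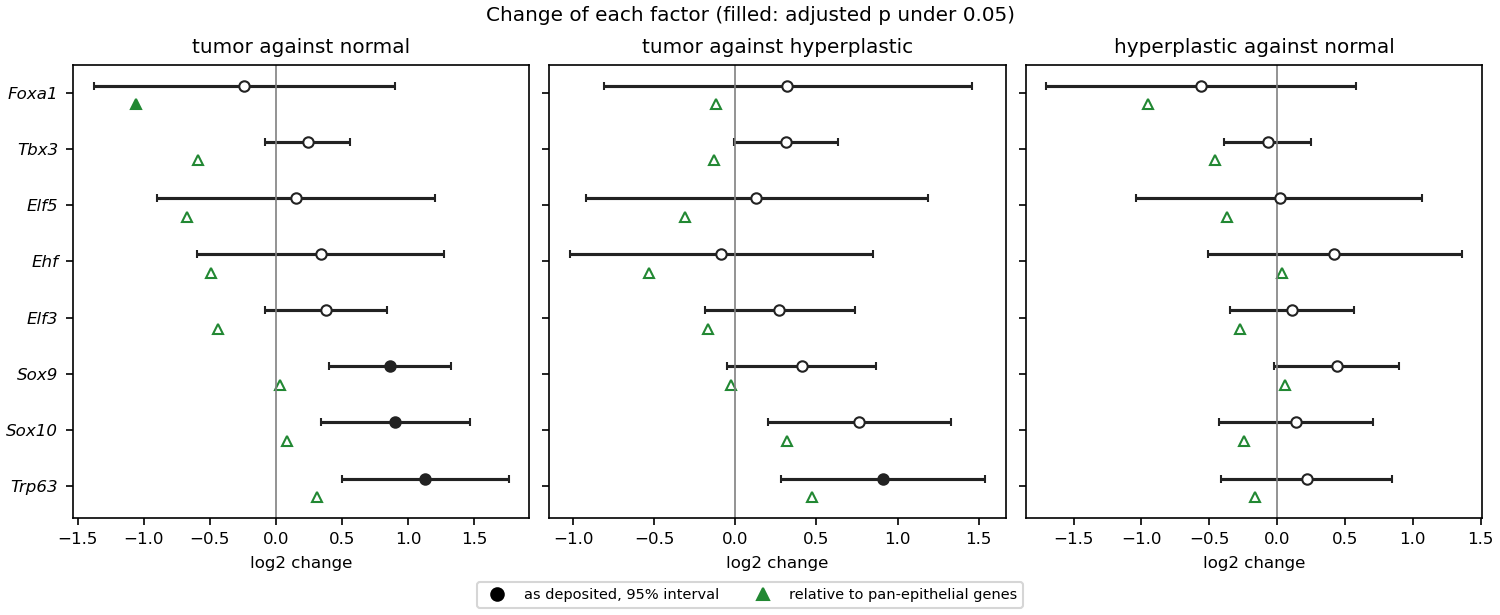
Log2 change of each factor in the 3 comparisons, as deposited (circles, with 95% intervals) and relative to the pan-epithelial genes (triangles), filled where the limma adjusted p is under 0.05. Trp63, Sox10 and Sox9 are filled circles in tumors against normal glands and open triangles near 0, at 0.31, 0.08 and 0.03. Foxa1 is a filled triangle at -1.06, on a scale where 17101 of 27030 genes were lower and 148 higher. Elf5, Ehf, Elf3 and Tbx3 pass on neither scale and lie right of 0 on the first and left of it on the second. The second scale moves all genes alike.

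No factor passed between hyperplastic and normal glands, in limma's adjusted test or at an unadjusted p under 0.05, and in the exact permutation test Foxa1 alone had an unadjusted p under 0.05 (permutation p = 0.0433, adjusted p = 0.249). With 1.01% of all genes higher and 0.655% lower in limma's test, a count of 0 in 8 does not set the factors apart. The median change of the 8 factors was 0.13 there, 0.32 for tumors against hyperplastic glands and 0.36 for tumors against normal glands, beside 0.00832, 0.0417 and 0.0439 for all genes. The comparisons share samples: normal glands enter 2 of them, and so do tumors and hyperplastic glands.

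Trp63 and Sox10 formed the pair of factors with the highest correlation. Their deviations from the group means gave r = 0.91 and rho = 0.83 over 18 arrays, 0.73 without the 2 arrays farthest out in Trp63 and 0.72 without tumor 3. Sox10 and Sox9 gave 0.75, and 0.79 without tumor 3. Among all 28 pairs of factors r was positive in 27, with a median of 0.57. Without tumor 3 it was positive in 21, with a median of 0.36, and Foxa1 went from 0.42 to 0.00 with Elf5 and from 0.40 to -0.11 with Ehf, while its r with Tbx3 was 0.91.

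The genes most like each factor were found in the same way, by Pearson's r of the deviations from group means over 18 arrays among 17048 other detected genes. Foxa1 was followed most closely by Tlcd4 and Stc2 (stanniocalcin 2, a secreted glycoprotein), both at 0.96, and by Gm20016 at 0.95. Without tumor 3 the same 3 genes led, at 0.94 to 0.96. Tbx3 was followed by Hipk2, a nuclear kinase, at 0.94, Prag1 at 0.91 and Cd164, a sialomucin, at 0.90, and without tumor 3 Hipk2 led again (0.95) while the other pair was replaced. Ehf was followed by Esrp1, the epithelial splicing regulator, and Nipal2, both at 0.98, and by St14, the membrane protease matriptase, at 0.97, of which Esrp1 alone stayed in the first 3 without tumor 3 (0.94). Esrp1 and St14 are also in the pan-epithelial list.

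Elf5 was followed by Zfp239 (0.96), Ano1, a calcium-activated chloride channel (0.95), and Wwc1, a regulator of Hippo signalling (0.95), none of which was among its first 3 without tumor 3. Elf3 was followed by Tbc1d8 and the luminal keratin gene Krt18, both at 0.94, and by Atp1b1, a sodium pump subunit, at 0.93, and the same 3 led without tumor 3 at 0.86 to 0.91. Trp63 was followed by Fam83b (0.97), Plek2 (0.96) and Trim29, a gene of basal epithelial cells (0.95), which without tumor 3 gave way to Apobec1 (0.91). Sox10 was followed by Echdc2, Vangl1 (a planar polarity protein) and Plekhg6, all at 0.95, of which Plekhg6 alone stayed without tumor 3 (0.91). The highest values for Sox9 were those of Gm5638 and Itga2, an integrin subunit, both at 0.91, and of Agrn, a basement membrane proteoglycan, at 0.88, of which Agrn alone stayed without tumor 3 (0.89).

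Relatives and partners of the listed factors were counted as well. Of 19 measured family members, 2 were higher and 3 lower in tumors than in normal glands, beside 19.5% and 12.7% of all genes. Cbfb, the partner subunit of RUNX factors, rose by 0.41 (SE 0.07, limma adjusted p = 0.000191) and the p63 relative Trp73 by 0.23 (SE 0.08, limma adjusted p = 0.0303). Runx1t1, a corepressor known from a leukemia fusion with RUNX1, fell by 1.33 (SE 0.10, limma adjusted p = 3.3e-08) and was already lower in hyperplastic glands, by -0.96 (limma adjusted p = 5.87e-05), while the ETS factor Elf4 fell by 0.64 (SE 0.22, limma adjusted p = 0.0363).

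Other transcription factors of the mammary epithelium were counted for comparison. Of 40 measured, 11 were higher and 6 lower in tumors than in normal glands, near the 19.5% and 12.7% of all genes, with a median change of 0.22. Tfap2a, an AP-2 factor, rose by 1.27 (SE 0.19, limma adjusted p = 4.39e-05) and Grhl3, a grainyhead factor of epithelial barriers, by 1.03 (SE 0.32, limma adjusted p = 0.0198). Cebpd, a factor of the acute phase and of involution, fell by 1.87 (SE 0.19, limma adjusted p = 9.86e-07) and Klf4, a Krüppel-like factor of differentiation, by 1.31 (SE 0.18, limma adjusted p = 2e-05). In tumors against hyperplastic glands, 3 of the 40 were higher and 3 lower, and between hyperplastic and normal glands none passed.

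Markers of the remaining cell types fell or were mixed in tumors against normal glands. All 13 fat cell genes were lower (Adipoq, an adipocyte hormone, fell by 3.18), as were all 11 endothelial genes (Tek, an angiopoietin receptor, fell by 1.88) and all 10 T cell genes (Cd4 fell by 2.73). Of 11 fibroblast and matrix genes 5 were lower, where Dpt, a matrix protein, fell by 2.63, and of 10 mast cell genes 6 were lower, where the mast cell protease Cpa3 fell by 4.49. Of 11 myeloid and pan-leukocyte genes, 3 were lower and 1, the Fc receptor subunit Fcer1g, was higher by 0.85. Fibroblasts can express Sox9 and Tbx3 as well, and the mean of their list was 8.87 to 9.45 in tumors and 9.76 to 10.11 in normal glands.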

How the data were processed

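RNA of each tissue was labelled with a whole-transcript kit and hybridised to Affymetrix mouse whole-transcript arrays. The deposited values are log2 values that the authors made by robust multi-array averaging (RMA: background correction, quantile normalization and median polish of the probes of a transcript cluster). The submitters' notes also name Expression Console and Partek, and the genome build of the array is not given in the sources used here. Because RMA gives the arrays a like distribution, a change in total RNA per cell was not measurable, and small values are compressed. Precision is limited by the number of arrays, 6 in each group.

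Of 58803 transcript clusters, 29266 carried a symbol and 27309 a single one; 19869 identifiers also matched a RefSeq gene ID. Where several clusters shared a single symbol (198 genes), the cluster of highest mean stood for the gene, giving 27030 genes. A second deposited table held the same values at all of its 58776 entries. Apart from 2 clusters, autosomes in the table end at chromosome 16.

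Groups came from the sample titles. A model with 3 group means was fitted to 18 arrays with limma 3.58.1 in R 4.3.3, with two-sided moderated tests, Benjamini-Hochberg adjustment over 27030 genes, a threshold of 0.05 and 95% intervals from limma's standard errors. The script was tested on simulated data. Named genes are all listed factors, the 2 called genes with the largest rise and the 2 with the largest fall of each other list (of the reference, fat, vessel, stromal, nerve, pigment and immune lists only the leading gene in a direction), and the 3 genes with the highest group-centred Pearson correlation to each factor. Pgr, Krt5, Krt14 and Cdh1 were added after their values were seen. The members and lists were chosen with earlier results of these data known. Alternatives were another filter, scale, variance model, test, threshold, choice of arrays and a replicate block. No batch is recorded. Whether lymph nodes were removed is not stated. The labels do not say whether equal replicate numbers pair the samples. Correlations of same-numbered arrays ran from -0.187 to 0.405, which does not settle it.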

Additional observations from a re-analysis of the deposited data

Results flagged for a closer look

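Among 24 combinations of a factor and a group, the lowest or highest array stood apart from the others in 1, the tumors' values of Ehf. Tumor 3 had 5.95, with a gap of 2.65 to the next tumor out of a range of 3.41, a share of 0.776, above Dixon's critical value for 6 arrays. Chance gives such a gap in about 1 of 20 groups. In the same tumor Elf5 was 6.20, Cdh1 7.59 and the pan-epithelial mean 7.45.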

How the results depend on the processing

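Without any 1 array, 3 to 5 factors were higher in tumors than in normal glands, and 5 only without tumor 3, where Ehf and Elf3 joined. Without tumor 3, 5451 of all 27030 genes were higher, beside 5278 on all arrays. The 3 calls became 0 relative to the pan-epithelial genes, where 1 factor, Foxa1, was lower, beside 17101 of 27030 genes lower and 148 higher. They became 1 (Sox9) in the exact permutation test and 0 at the methods' threshold, an unadjusted p under 0.05 and a log2 change beyond 2. With tumors 3 and 6 left out together, a choice made after seeing the data that removes the lowest Foxa1 values, 6 factors were higher. The count was the same with hyperplastic replicate 3 left out too. Of all genes, 5570 and 5544 were higher in these settings, in that order.

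For tumors against hyperplastic glands the count of 1 became 0 to 3 without 1 array. It was 0 without tumor 1, 2, 4 or 5 or hyperplastic replicate 1, 2, 4 or 6. In these settings 2577 to 3217 of all genes were higher, beside 3229 on all arrays. It was 2 without tumor 3 or hyperplastic replicate 5, beside 3539 and 2792 genes, and 3 without tumor 6, beside 3478. It was 0 relative to the pan-epithelial or reference genes, in a fit of those groups alone, in the exact permutation test, at the methods' threshold and with replicate numbers as a block. It was 2 among detected genes and with 1 variance per group, where Sox10 joined, beside 3106 of 17049 and 3064 of 27030 genes. Without tumors 3 and 6 it was 5, beside 4006 genes, and without hyperplastic replicate 3 as well 4, beside 3822. The call of Trp63 in that comparison thus depends on the setting. The replicate block left the calls against normal glands at 3, and no factor passed between hyperplastic and normal glands in any setting.

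Counts over all genes moved as well. Relative to the pan-epithelial genes, 148 genes were higher and 17101 lower in tumors than in normal glands, 38 and 1136 in tumors than in hyperplastic glands, and 4 and 80 in hyperplastic than in normal glands. At the methods' threshold these were 54 and 217, 3 and 142, and 4 and 3. The 274 and 177 genes called between hyperplastic and normal glands became 155 and 4839 on the reference scale, 166 and 147 with a variance trend, 795 and 445 with 1 variance per group, 1002 and 522 in a fit of those groups alone and 0 in the exact permutation test. The causes were not tested.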
